A study of Mus musculus with 8 samples.

Results

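The 9 genes followed here belong to matrix remodelling and were measured on arrays of splenic dendritic cells: the matrix metalloproteinases Mmp9, Mmp12, Mmp14 and Mmp2, the protease inhibitors Timp1, Timp2 and Slpi, the collagen-modifying enzyme P3h2 and the collagen chain Col14a1. All probe sets whose platform annotation gave 1 of these symbols were taken, which made 20 of the 45101 probe sets, and 9 of the 18193 genes that a probe set named alone. The genes were chosen because Mmp12, Mmp9 and P3h2 separated the CD8α+ from the CD8α- subset in these same arrays, so subset differences of all 9 genes are given as a description, with no test. The study asked how T and B lymphocytes bear on conventional dendritic cells of the spleen. It had 4 groups of 2 arrays: CD8α- cells and CD8α+ cells of wild type C57BL/6 mice, and the same 2 populations of C57BL/6 mice lacking Rag2 (RAG2-/-), the recombinase gene without which mature lymphocytes do not form. All mice were untreated females, 10 weeks old per the sample labels (8 to 10 weeks per the series description). Nothing in the labels says that replicates came from separate mice or whether mice were pooled, so p-values here reflect only how these arrays vary, which may be technical.

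Matrix metalloproteinases are zinc-dependent enzymes that are made as inactive precursors and cut matrix proteins, chemokines and cell surface molecules once activated. TIMP proteins block their catalytic site. In dendritic cells, gelatinases such as Mmp9 are known for helping cells cross basement membranes, while collagen chains and the enzymes that hydroxylate them are mainly products of fibroblasts and other stromal cells.

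Levels are log2 expression values as the authors deposited them, so 1 unit is a doubling. A value of at least 5 on at least 2 arrays was required for a gene to be tested, and values below 5 are treated as near background. Of the 20 probe sets, 8 passed this filter and 12 did not. The 6 genes with a passing probe set were Mmp9, Mmp12, P3h2, Slpi, Timp2 and Col14a1. Mmp14, Mmp2 and Timp1 had none, and their 6 probe sets stayed between 1.91 and 2.92 on all 8 arrays.

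**Figure D1:**
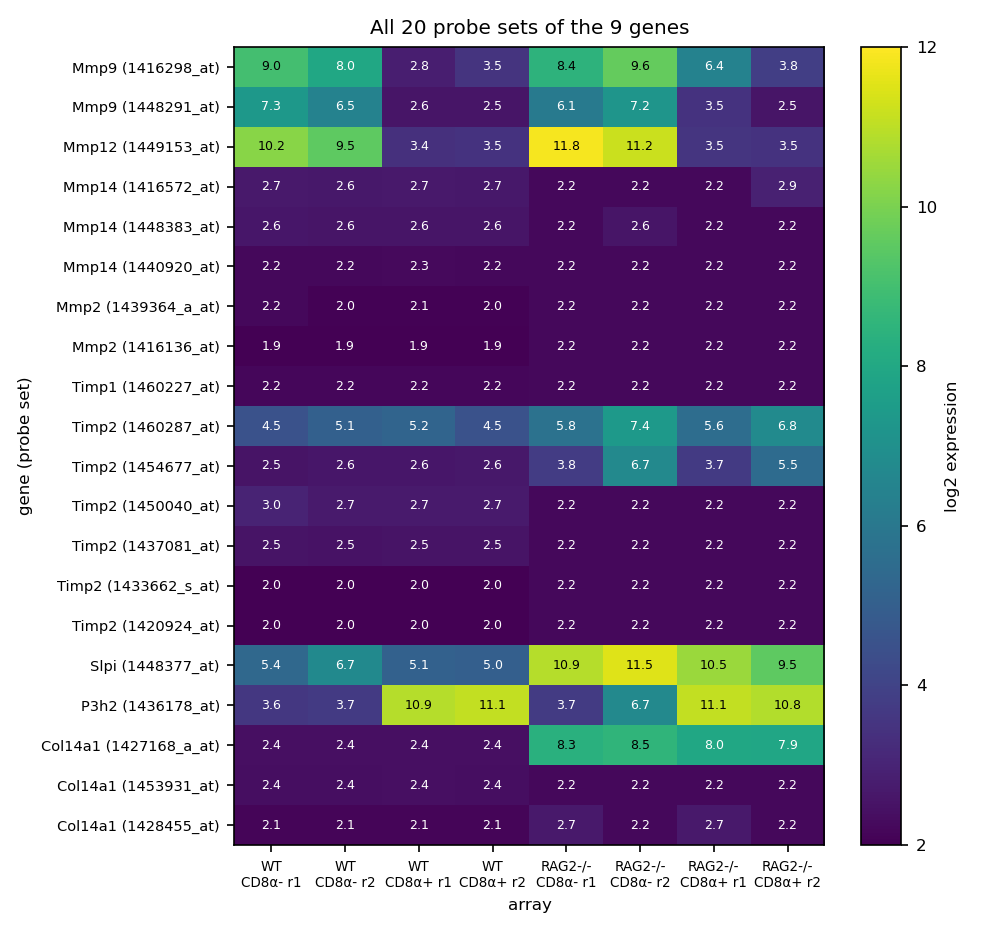
Log2 expression of all 20 probe sets of the 9 genes (rows, by gene and probe set) on the 8 arrays (columns, by genotype, subset and replicate number r1 or r2). The bright cells are those of Mmp12 and Mmp9 in CD8α- columns, P3h2 in CD8α+ columns, and Slpi and 1 Col14a1 probe set in RAG2-/- columns, while 12 probe sets stay at or below 2.98 throughout.

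The sort was visible in its markers. Cd8a read 5.80 to 6.10 on wild type CD8α- arrays and 11.73 to 11.94 on wild type CD8α+ arrays, and 6.90 to 7.70 and 12.31 to 12.51 in RAG2-/- cells. Shared dendritic cell markers such as Itgax and Flt3 were above 11 on every array. Neutrophil transcripts stood out on 2 arrays, RAG2-/- CD8α- replicate 2 and RAG2-/- CD8α+ replicate 1. There 9 and 7 of the 12 neutrophil markers on the array reached 5, against 2 and 1 on the other arrays of those groups and 0 or 1 on the wild type arrays. The granule gene Ngp read 11.65 and 10.18 on those 2 arrays and at most 4.24 on the other 6. Results on the genotypes are therefore also given without these 2 arrays. The genotypes differed in processing too: on each RAG2-/- array 40.39% to 41.89% of probe sets shared a lowest value of 2.23, whereas the lowest value on each wild type array belonged to 1 probe set. Genotype and such processing or array batches cannot be told apart here. In bulk RNA, a change in the number of cells of a type and a change in RNA per cell cannot be told apart either.

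**Figure D2:**
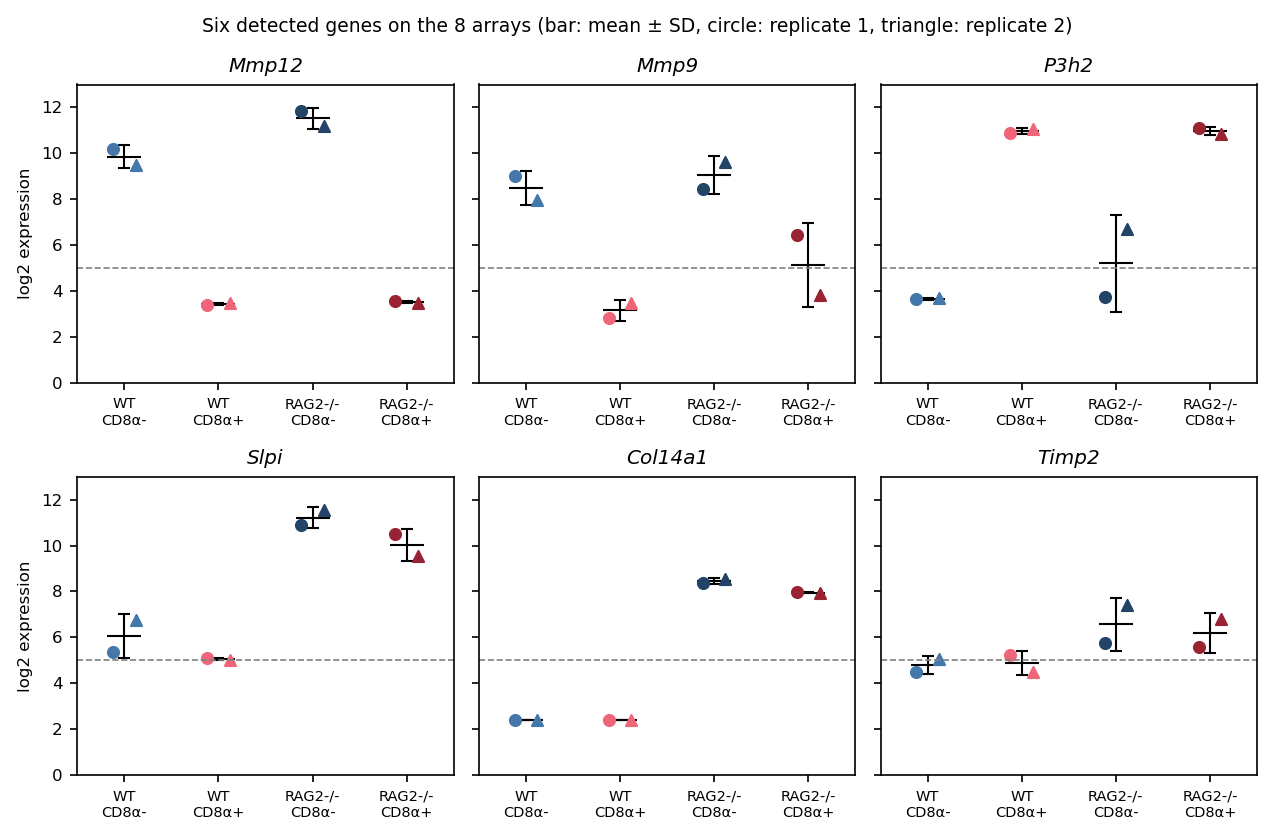
Log2 expression (y axis) of the 6 detected genes, each by its brightest probe set, in the 4 groups (x axis). Circles are replicate 1, triangles replicate 2, horizontal bars the mean with SD of 2 arrays, and the dashed line the filter level of 5. Mmp12 and Mmp9 are high in CD8α- groups, P3h2 in CD8α+ groups, and Slpi and Col14a1 in RAG2-/- groups.

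Mmp12, the macrophage elastase, which cuts elastin and other matrix proteins, was abundant in CD8α- cells and near background in CD8α+ cells of both genotypes. Its only probe set read 10.21 and 9.51 on the wild type CD8α- arrays and 11.85 and 11.21 on the RAG2-/- CD8α- arrays. On the CD8α+ arrays it read 3.39 and 3.46 in wild type and 3.55 and 3.48 in RAG2-/- cells. The subsets did not overlap in either genotype, and because the CD8α+ readings were near background the fold is given against the level of 5: Mmp12 was at least 29-fold lower in wild type and at least 92.3-fold lower in RAG2-/- CD8α+ cells. Among all 8763 genes tested, 28.3% in wild type and 27.6% in RAG2-/- cells were lower in CD8α+ cells without overlap of arrays, and nothing is read from the count here because this contrast chose the genes. The order of levels was RAG2-/- CD8α- (11.53 ± 0.45, SD, n = 2), wild type CD8α- (9.86 ± 0.49), then RAG2-/- and wild type CD8α+ (3.51 ± 0.05 and 3.43 ± 0.05), of which the last 2 are both below the filter level.

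Between genotypes, a contrast that did not choose the genes, Mmp12 rose in RAG2-/- CD8α- cells by 1.67 (SE 0.29), a 3.18-fold difference (limma, adjusted p = 0.00544), and the arrays did not overlap (42.6% of all genes tested were higher and 31.8% lower in RAG2-/- CD8α- cells without overlap, and 39.7% and 32.3% in CD8α+ cells). The change was 1.99 (adjusted p = 0.0213) without the 2 arrays with neutrophil transcripts, and it passed in each of the 18 other settings tried, with adjusted p from 0.00394 to 0.0373. In CD8α+ cells both genotypes were near background (change 0.08, SE 0.29, adjusted p = 0.842). The red pulp macrophage list was also higher in RAG2-/- CD8α- cells: the log2 of its summed level was 14.56 to 14.60 there against 12.46 to 12.87 in wild type CD8α- cells, with 11 to 12 of 13 markers reaching 5 against 5. The part of such cells in the Mmp12 difference was not tested. Of its markers, the scavenger receptor genes Cd163 and Cd5l read 7.83 to 7.99 and 6.99 in RAG2-/- CD8α- cells and 3.41 to 4.19 and 2.94 to 4.85 in wild type CD8α- cells.

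Mmp12 and Slpi rose with the RAG2-/- genotype and had promoter entries among the RefSeq sequences used (build GRCm38.p6), so their 250 bases before the annotated start are shown. Entries were matched for 5 of the 9 genes (Mmp12, Mmp14, Timp1, Timp2 and Slpi). The windows are chr9:7344147-7344396 on the plus strand for Mmp12 and chr2:164356508-164356757 on the minus strand for Slpi, both written 5′ to 3′ along the gene. Capitals mark matches to motifs searched on both strands.
Mmp12: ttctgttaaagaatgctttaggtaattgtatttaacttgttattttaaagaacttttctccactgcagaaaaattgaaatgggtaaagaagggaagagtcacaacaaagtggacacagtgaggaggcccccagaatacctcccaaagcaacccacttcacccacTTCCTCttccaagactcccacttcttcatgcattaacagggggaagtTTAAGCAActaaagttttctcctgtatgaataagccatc
Slpi: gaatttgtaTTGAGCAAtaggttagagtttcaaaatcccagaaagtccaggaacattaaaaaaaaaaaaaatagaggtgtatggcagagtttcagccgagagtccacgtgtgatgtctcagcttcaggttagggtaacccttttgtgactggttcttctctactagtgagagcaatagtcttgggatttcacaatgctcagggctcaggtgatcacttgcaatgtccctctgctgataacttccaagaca
The Mmp12 window holds a match to the PU.1 motif GAGGAA, on the opposite strand, from -86 to -81 relative to the start site, and to the C/EBP motif TTGCNNAA, on the opposite strand, from -39 to -32. The Slpi window holds a C/EBP match, TTGAGCAA, also on the opposite strand, from -241 to -234. PU.1 and C/EBP factors are regulators of myeloid genes. Of all 32851 windows of 250 bases, 23.3% held the PU.1 motif and 9.56% the C/EBP motif. Neither window matched the AP-1 motif TGANTCA (6.75% of windows), the interferon response element (GAAA, any 2 bases, GAAA; 2.98%), the NF-kB motif (3.9%) or TATAAA (12.4%). A further annotated Mmp12 start, at position 7347374, had an AP-1 match, TGAGTCA, from -44 to -38. These matches describe letters only.

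Mmp9, gelatinase B, which cuts denatured collagen and basement membrane collagen, followed the same subset pattern with wider spread. Its brighter probe set, 1416298_at, read 9.0 and 7.96 in wild type CD8α- cells and 2.84 and 3.49 in wild type CD8α+ cells. In RAG2-/- cells it read 8.45 and 9.62 in CD8α- and 6.44 and 3.84 in CD8α+ cells. The other probe set, 1448291_at, read 7.33 and 6.45 against 2.56 and 2.55 in wild type, and 6.09 and 7.22 against 3.45 and 2.55 in RAG2-/- cells. On both probe sets the subsets did not overlap in either genotype, and against the level of 5 the wild type CD8α+ cells were at least 11.2-fold lower on the brighter and at least 3.7-fold lower on the dimmer probe set. In RAG2-/- cells the dimmer probe set gave at least 3.15-fold, and the brighter, with 1 CD8α+ array above 5, a difference of means (CD8α+ less CD8α-) of -3.90. The groups ranked RAG2-/- CD8α- (9.04 ± 0.83), wild type CD8α- (8.48 ± 0.74), RAG2-/- CD8α+ (5.14 ± 1.84) and wild type CD8α+ (3.16 ± 0.46), and the first 2 overlapped.

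The highest Mmp9 reading within each RAG2-/- group fell on the array with neutrophil transcripts, 9.62 in CD8α- replicate 2 and 6.44 in CD8α+ replicate 1. Mmp9 is a granule gene of neutrophils, and their part in these readings was not tested. No genotype change of Mmp9 passed: 0.56 (SE 0.84, adjusted p = 0.623) in CD8α- cells and 1.98 (0.84, 0.104) in CD8α+ cells. The first was -0.03 without RAG2-/- CD8α- replicate 2. The second was 3.28 (adjusted p = 0.0217) without RAG2-/- CD8α+ replicate 2, which leaves only the array with neutrophil transcripts in that group, and 0.67 without replicate 1. Quantile normalization also called it (2.43, adjusted p = 0.0494). The 16 other settings did not call it, and with values below 5 set to 5 it was 0.72 (adjusted p = 0.385). Tested on its own, the dimmer probe set 1448291_at changed by 0.45 (SE 0.48, limma, adjusted p = 0.498) in CD8α+ cells. In CD8α- cells it changed by -0.23 (0.48, 0.73).

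Mmp14, a membrane-bound metalloproteinase that activates the Mmp2 precursor, and Mmp2 (gelatinase A) itself were near background in every group. The 3 Mmp14 probe sets read 2.23 to 2.92 and the 2 Mmp2 probe sets 1.91 to 2.23. Of 17 other matrix metalloproteinases listed, 12 had a probe set with that symbol alone and only Mmp23 passed the filter. Mmp23, a small membrane-anchored member, did not pass between the subsets (-0.26 in wild type, 0.53 in RAG2-/- cells) but fell in RAG2-/- cells by 2.73 (SE 0.33, adjusted p = 0.00154) in CD8α- and by 1.94 (0.33, 0.00526) in CD8α+ cells.

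Slpi, a secreted inhibitor of neutrophil elastase and other serine proteases, rose in RAG2-/- cells of both subsets. It read 5.38 and 6.74 in wild type CD8α- cells and 5.10 and 5.03 in wild type CD8α+ cells. In RAG2-/- cells it read 10.89 and 11.53 in CD8α- and 10.51 and 9.53 in CD8α+ cells, and the genotypes did not overlap. The change was 5.15 (SE 0.50), or 35.5-fold, in CD8α- cells (limma, adjusted p = 0.000862) and 4.95 (0.50), or 30.9-fold, in CD8α+ cells (adjusted p = 0.00119). It passed in each of 18 other settings per subset, with changes of 4.47 to 5.83 and 4.47 to 5.44. Without the 2 arrays with neutrophil transcripts it was 4.83 (adjusted p = 0.0136) and 4.47 (0.0182), measured on the RAG2-/- arrays with low neutrophil readings. The red pulp macrophage list was higher in RAG2-/- cells of both subsets (13.34 to 13.65 against 12.21 to 12.68 in CD8α+ cells), and its part in the Slpi and Col14a1 differences was not tested. The subset gap of Slpi was -0.99 in wild type and -1.19 in RAG2-/- cells, and the arrays of the 2 subsets did not overlap in either. The genotype changes in the subsets differed by -0.20 (SE 0.71, adjusted p = 0.973).

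Timp2, a TIMP that also takes part in activating Mmp2, read higher in RAG2-/- cells without passing the test. Its brightest probe set, 1460287_at, read 4.50 and 5.06 in wild type CD8α- cells and 5.24 and 4.50 in wild type CD8α+ cells, against 5.75 and 7.39 and 5.58 and 6.79 in RAG2-/- cells. The genotypes did not overlap within a subset. The change was 1.79 (SE 0.61, adjusted p = 0.0537) in CD8α- and 1.31 (0.61, 0.134) in CD8α+ cells. In CD8α- cells it crossed the threshold in 4 other settings and not in 13. Adjusted p (limma) was 0.0272 with quantile normalization, 0.038 with trend and robust eBayes and 0.0412 with the replicate number as a block. The last of the 4 left out RAG2-/- CD8α- replicate 1 (change 2.61), so only the array with neutrophil transcripts stood for that group. Without the 2 arrays with neutrophil transcripts the CD8α- change was 0.97. In CD8α+ cells it was 1.92 in that setting, which leaves a single array in each RAG2-/- group. That setting crossed the threshold in CD8α+ cells and the 16 others did not. The probe set 1454677_at ran from 2.51 to 2.65 on wild type arrays and read 3.78, 6.70, 3.69 and 5.48 on the RAG2-/- arrays, highest on both replicates numbered 2. The other 4 Timp2 probe sets stayed at 1.98 to 2.98. Timp1 read 2.16 to 2.23 on all arrays.

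P3h2, a prolyl 3-hydroxylase that modifies collagen chains in the endoplasmic reticulum, ran opposite to the metalloproteinases. Its only probe set read 10.90 and 11.08 in wild type CD8α+ and 11.10 and 10.84 in RAG2-/- CD8α+ cells. On the CD8α- arrays it read 3.63 and 3.70 in wild type and 3.72 and 6.70 in RAG2-/- cells. The CD8α+ groups, 10.99 ± 0.13 and 10.97 ± 0.18, overlapped. Against the level of 5, P3h2 was at least 63.5-fold higher in CD8α+ than in CD8α- cells of wild type mice, and in RAG2-/- mice, with 1 CD8α- array above 5, the means differed by 5.76. Without overlap of arrays, 32.4% and 30.6% of all genes tested were higher in CD8α+ cells of the 2 genotypes. On RAG2-/- CD8α- replicate 2, the array that read 6.70, the CD8α+ dendritic cell list was also higher (log2 of summed level 14.01 against 13.05 on replicate 1 and 12.25 to 12.64 in wild type). Its markers Cd8a (7.70 against 6.90), Itgae, Tlr3, Cd36, Cadm1 and Irf8 read higher there than on replicate 1. Ly75 read lower (6.98 against 7.86), Batf3 was level (12.16 against 12.14) and Xcr1 was near background (3.36 against 2.72). The part of CD8α+ cells in the P3h2 reading on replicate 2 was not tested. No genotype change passed for P3h2 (1.55, SE 0.81, adjusted p = 0.166 in CD8α- cells and -0.02, SE 0.81, adjusted p = 0.989 in CD8α+ cells). The first was 0.06 without RAG2-/- CD8α- replicate 2, which is also an array with neutrophil transcripts. It was 3.04 without replicate 1, which leaves only that array in the group. Of 18 other settings, only this last one crossed the threshold and 17 did not.

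Col14a1, a chain of collagen XIV that associates with collagen fibrils, separated the genotypes on 1 of its 3 probe sets. That probe set, 1427168_a_at, read 2.41 and 2.40 in wild type CD8α- cells and again 2.41 and 2.40 in wild type CD8α+ cells. It read 8.35 and 8.54 in RAG2-/- CD8α- and 7.97 and 7.93 in RAG2-/- CD8α+ cells. Col14a1 passed the filter only through its RAG2-/- arrays, so in the filtered fit it had to differ, and neither its p nor its call there is independent support. Against the level of 5, the value was at least 10.9-fold higher in RAG2-/- CD8α- cells (difference of readings 6.04) and at least 7.73-fold higher in RAG2-/- CD8α+ cells (5.54). In the limma fit with no filter, which tests all genes, the adjusted p was 5.11e-06 and 5.81e-06. Most genes were called in that fit (10923 of 18193 in CD8α- cells and 10678 in CD8α+ cells). The SE of Col14a1 was 0.07 in it, against 0.16 with the filter. Wild type readings were near background and the lowest values differed between genotypes, so this p is no independent support either. The probe sets 1453931_at and 1428455_at read 2.12 to 2.68 on all 8 arrays, so the difference is that of a single probe set. Defining stromal genes were near background: Col1a1, Col1a2, Col3a1, Dcn and Lum read 2.23 to 3.49 on every array, and none of 10 fibroblastic markers reached 5 on any array. Of the 8763 genes tested, 91 (1.04%) were likewise below 5 on all 4 wild type arrays and at or above 5 on all 4 RAG2-/- arrays, and 136 (1.55%) the reverse.

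**Figure D3:**
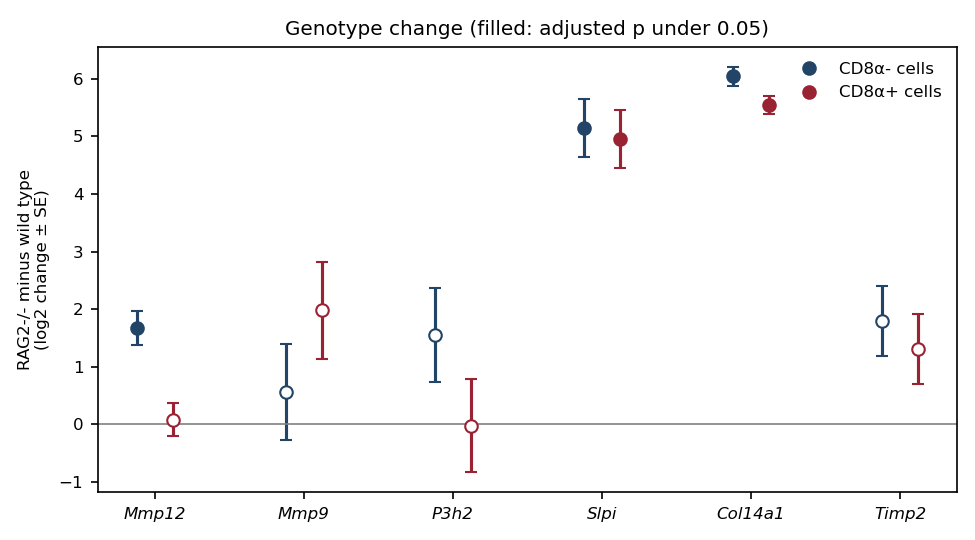
Change from wild type to RAG2-/- cells (y axis, log2, with SE from the limma fit) for the 6 detected genes (x axis) in CD8α- cells (blue) and CD8α+ cells (red). Filled points have an adjusted p under 0.05: Mmp12 in CD8α- cells (1.67), and Slpi and Col14a1 in both subsets (4.95 to 6.04).

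Taking the 6 tested genes, 3 rose, 0 fell and 3 were not called between the genotypes in CD8α- cells, and 2 rose, 0 fell and 4 were not called in CD8α+ cells. Over all genes tested, 40.5% were called in CD8α- cells (23.4% higher, 17.1% lower) and 36.9% in CD8α+ cells (20.8% higher, 16.1% lower), with median changes of 0.14 and 0.09. Since genes that passed the filter through the RAG2-/- arrays alone had to differ, these counts support nothing by themselves. The fit with no filter also called Timp1 in CD8α- cells, at a change of 0.06 (adjusted p = 0.032), with all its readings near background. The difference of genotype changes between subsets (CD8α+ less CD8α-) was tested for Slpi, Timp2 and Col14a1, whose subset gap did not choose the genes. Col14a1 was near background on all wild type arrays. Its difference of -0.49 is therefore only its RAG2-/- subset gap, and the test cannot compare subset gaps between genotypes. None of the 3 was called by limma and none had an unadjusted p under 0.05, where 0.24% of all genes were called (0.0799% higher, 0.16% lower). For the genes chosen on their subset difference, each with a group below 5, the difference of readings was -1.58 (SE 0.42) for Mmp12, 1.42 (1.19) for Mmp9 and -1.57 (1.15) for P3h2, given without a test.

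**Figure D4:**
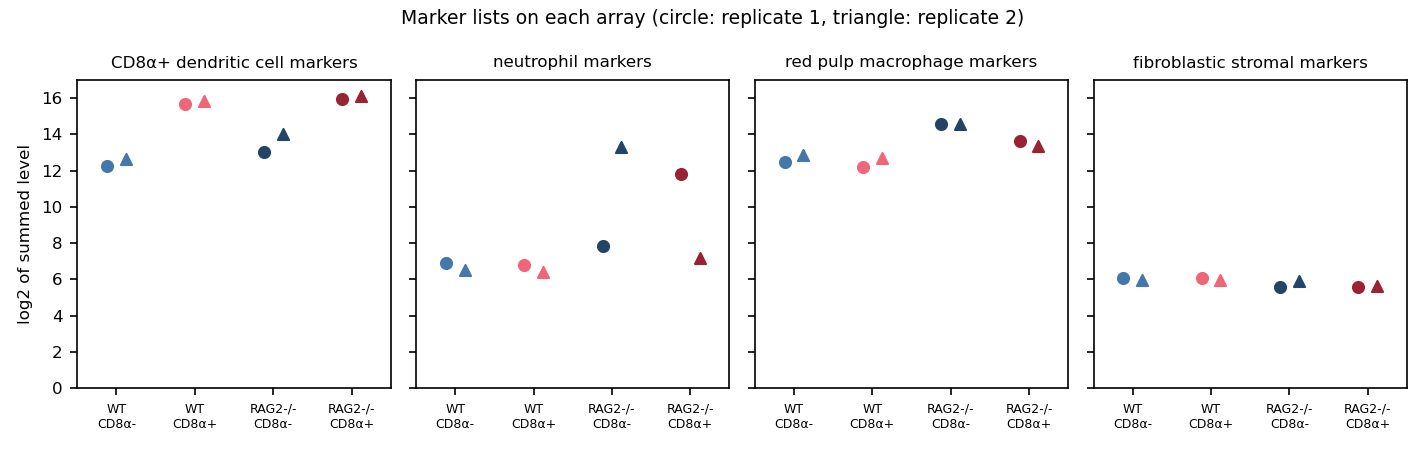
Log2 of the summed linear level (y axis) of 4 marker lists on each array, by group (x axis), with circles for replicate 1 and triangles for replicate 2. The neutrophil list stands at 13.29 and 11.84 on 2 RAG2-/- arrays and at or below 7.84 elsewhere, the red pulp macrophage list is higher in RAG2-/- groups (13.34 to 14.60), and the fibroblastic stromal list stays at 5.61 to 6.08.

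The genes whose profile over the 8 arrays, centred on its own mean, lay nearest to each of the 3 subset-splitting genes were found by root mean square difference in log2 units. Nearest to Mmp12 were the prostaglandin E receptor gene Ptger3 (0.72), the lipid transporter gene Abca9 (0.78) and Sirpb1a (0.93). Those nearest to Mmp9 were Sirpa (0.66), Ifit3 (0.77) and Clec4a3 (0.77). P3h2 lay nearest to the lipid phosphatase gene Plpp1 (0.46), Gm36723 (0.62) and Fam149a (0.62). All 6 neighbours of the metalloproteinases were high in CD8α- cells and all 3 of P3h2 in CD8α+ cells, as the measure selects.

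The remaining genes of these pathways were read from 8 lists with 146 genes, of which 130 had a probe set and 37 passed the filter. Between the wild type subsets 7 of the 37 were higher in CD8α+ cells, 6 lower and 24 not called, or 35.1% called against 17.1% of all genes tested (9.23% higher, 7.87% lower). In RAG2-/- cells 9 were higher, 6 lower and 22 not called, or 40.5% against 21.8% (11.1% higher, 10.7% lower). The median changes were 0.10 and 0.12, against 0.01 and 0.02 over all genes. Serpinb8, Nid1, Col17a1, Emilin2, Lrp1 and Adamdec1 passed the filter only through groups of the subset where they read high, so they had to differ. Their subset differences are given with no p, as bounds, readings or a difference of means. They are among the called genes, and the lists were chosen with earlier results of these data known. Nothing is therefore read from the shares called. Genes named in this and the next 2 paragraphs with neither an SE nor a bound were named after their values were seen.

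Of 12 tested serine and cysteine protease inhibitors, 5 rose and 2 fell from CD8α- to CD8α+ cells in each genotype. Over all genes tested, 9.23% rose and 7.87% fell in wild type, and 11.1% and 10.7% in RAG2-/- cells. Nothing is read from this count or from those of the lists below. Serpinb8, which had to differ, Serpinb6b, Serpinb9, Cst3 and Cstb made up the higher genes in both genotypes. The serpins Serpinb1a (1.47 and 0.56) and Serpinb6a (-0.03 and 0.11) were not called in either. Serpinb8 read 8.29 and 8.64 in wild type CD8α+ and 3.07 and 2.84 in wild type CD8α- cells, at least 11-fold higher, and at least 9.09-fold higher in RAG2-/- cells. Serpinb6b rose by 3.08 (SE 0.22, adjusted p = 0.000206) in wild type and 3.97 (0.22, 7.24e-05) in RAG2-/- CD8α+ cells. Serpinb9, the inhibitor of granzyme B, rose by 2.73 (0.35, 0.0021) and 2.88 (0.35, 0.00161). Wfdc17, a small secreted protein with the same whey acidic protein fold as Slpi, fell in RAG2-/- CD8α+ cells by 3.20 (0.28, 0.00042), and by 2.67 in wild type. Serpini1 in wild type (-2.59) and Spint1 in RAG2-/- cells (-0.92) made up the lower genes.

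Among 8 tested ADAM and ADAMTS proteases, 1 was higher (Adam8, 1.28 and 1.38) and 2 were lower (Adamdec1 and Adam23) in CD8α+ cells of each genotype. Adamdec1, a secreted protease of the family, read 6.51 and 7.04 in wild type CD8α- and 2.94 and 2.92 in wild type CD8α+ cells, a fall of at least 3.43-fold. In RAG2-/- cells it read 9.80 and 9.69 in CD8α- and 5.93 and 4.61 in CD8α+ cells, a difference of means of -4.47 (SE 0.41). Of 3 tested collagen chains, Col17a1 was at least 3.76-fold lower in wild type CD8α+ cells and Col23a1 higher in RAG2-/- CD8α+ cells (0.82), out of 23 chains on the array. In the list of collagen-modifying enzymes, P4hb was higher in both genotypes (1.16 and 0.65) and 5 of 6 were not called. The basement membrane linker gene Nid1 was at least 3.66-fold lower in wild type CD8α+ cells and was the only call among 3 tested matrix glycoproteins there. Lrp1, an endocytic receptor that clears metalloproteinases, was at least 4.57-fold lower in RAG2-/- CD8α+ cells. Emilin2 read 2.85 and 2.83 there against 5.44 and 5.97 in RAG2-/- CD8α- cells, the only arrays on which it reached 5. Serpinb2, the only tested gene of plasminogen activation, was higher by 2.45 in RAG2-/- CD8α+ cells.

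**Figure D5:**
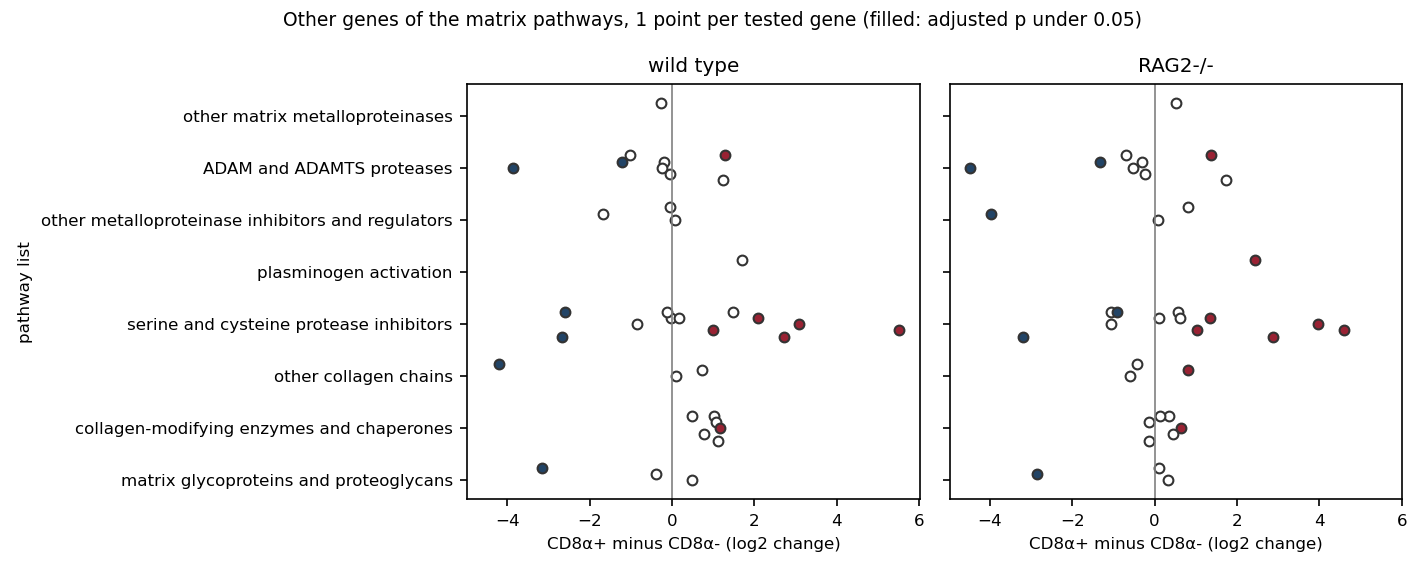
Difference between CD8α+ and CD8α- cells (x axis, log2) for the 37 tested genes of the 8 pathway lists (rows), in wild type (left) and RAG2-/- cells (right), 1 point per gene. Filled points have an adjusted p under 0.05 (red higher, blue lower in CD8α+ cells), and the 5 filled red points of the serine and cysteine protease inhibitors stand in both panels.

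Between the genotypes, 9 pathway genes were higher, 10 lower and 18 not called in RAG2-/- CD8α- cells, or 51.4% called against 40.5% of all genes. In CD8α+ cells 5 were higher, 7 lower and 25 not called, or 32.4% against 36.9%. Nothing is read from these shares either, since the lists were chosen with earlier results of these data known. The medians were 0.03 and -0.23. Adamdec1 rose by 2.96 (SE 0.41, adjusted p = 0.00237) in RAG2-/- CD8α- and by at least 1.21-fold in RAG2-/- CD8α+ cells (2.34, 0.41, 0.00587), where it was 0.46 (adjusted p = 0.302) with values below 5 set to 5, within 0.00253 to 0.302 over the settings. Emilin2 was at least 1.63-fold higher in RAG2-/- CD8α- cells, the only arrays on which it reached 5. Nid1 and Col17a1 were at least 3.66-fold and 3.76-fold lower there, having reached 5 only on the wild type CD8α- arrays. Lrp1 rose by 1.86 (0.50, 0.024) in CD8α- cells, where it read 5.70 and 4.96 in wild type and 6.51 and 7.88 in RAG2-/- cells. Outside RAG2-/- CD8α- cells only the reading of 5.70 reached 5, so Lrp1 passed the filter only through that group. Neither its call nor its adjusted p values here are independent support. In CD8α+ cells Bsg, which encodes an inducer of metalloproteinases, rose by 1.99 (0.51, 0.0216) and Serpinb6a by 1.52 (0.35, 0.015), while Ppib fell by 1.27 (0.27, 0.0115) and Adam9 by 1.15 (0.27, 0.0172). Of these, 5 calls (Lrp1, Bsg, Serpinb6a, Ppib and Adam9) were each lost without certain single arrays. Lrp1 was lost without RAG2-/- CD8α- replicate 2 (1.17, adjusted p = 0.0954) or wild type CD8α- replicate 1 (2.23, 0.0597) or 2 (1.49, 0.141). Without RAG2-/- CD8α+ replicate 1, Bsg stood at 1.31 (0.0976), Serpinb6a at 1.09 (0.0693), Ppib at -1.02 (0.0608) and Adam9 at -0.84 (0.081). Leaving out wild type CD8α+ replicate 1 ended the calls of Bsg (1.94, 0.105), Serpinb6a (1.18, 0.0913) and Ppib (-1.34, 0.0529), and leaving out replicate 2 those of Bsg (2.04, 0.0846), Ppib (-1.20, 0.0601) and Adam9 (-0.92, 0.0904). Taking the mean of its probe sets, Ppib stood at -0.29 (0.34). Fitting only the compared groups ended the calls of Lrp1 (0.0739), Serpinb6a (0.0544) and Adam9 (0.0547), and leaving out the 2 arrays with neutrophil transcripts did so at 0.0713, 0.0724 and 0.0757. Over all settings the adjusted p values ran from 0.0121 to 0.141 for Lrp1, 0.0129 to 0.105 for Bsg, 0.00931 to 0.0913 for Serpinb6a, 0.00378 to 0.34 for Ppib and 0.00779 to 0.0904 for Adam9.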

How the data were processed

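Total RNA of sorted cells was labelled with biotin and hybridised to Affymetrix arrays. The authors deposited log2 expression values per probe set. Per the submitters' processing notes, GCRMA was used throughout and affy is named beside it on wild type arrays only. No source used here gives versions or says which arrays shared a normalization. Values were used as deposited. Probe sets were named from the platform annotation: 34945 had 1 gene name, 932 several and 9160 none, and 64 were controls. The filter kept probe sets reaching log2 5 on 2 or more of the 8 arrays, and the brightest of these stood for its gene (8763 genes). All 4 groups entered a single limma fit (limma 3.58.1, R 4.3.3, 4 residual degrees of freedom), with 2-sided p-values adjusted by Benjamini-Hochberg over all genes and a threshold of 0.05. Where 1 group was below 5 on each array, the fold is given against 5. Precision is limited by how many arrays there are.

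The genes, lists and tests were chosen with earlier results of these data known. Named were all probe sets of the 9 genes, the 3 nearest genes to each of 3, and, per comparison, up to 3 called pathway genes in each direction whose arrays did not overlap. The alternatives were another normalization, filter, probe set rule, fit or block, and leaving out arrays. Replicate numbers are not taken as pairs: between groups, the correlation of replicate differences was -0.146 to 0.112. On simulated data with 200 genes changed between the genotypes in CD8α- cells (8763 genes), 3.7% of calls were false, and 23% of log2 changes of 1 and 81% of changes of 2 were recovered. The simulated noise was normal and independent between genes, with no shared lowest value, no filter step and no processing difference between genotypes. It checks the fit only and does not give the share of false genotype calls in the real data. Plots used matplotlib 3.10.9 and Python 3.11.15.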

Additional observations from a re-analysis of the deposited data

Results flagged for a closer look

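Col17a1, a transmembrane collagen chain, had a genotype change that differed between the subsets by 3.76 (SE 0.35, limma, adjusted p = 0.0258). It read 6.96 and 6.87 in wild type CD8α- cells and between 2.54 and 3.75 on the other 6 arrays, so it passed the filter only through the first group and the value rests on readings near background. With values below 5 set to 5 it was 1.91 (adjusted p = 0.022). Emilin2, an elastic fibre glycoprotein, had a difference of -2.47 (0.31, adjusted p = 0.0419), with 5.44 and 5.97 in RAG2-/- CD8α- cells and 2.83 to 3.93 elsewhere, so it too passed only through the group where it is high. With values below 5 set to 5 it was -0.70 (adjusted p = 0.58). Neither call was stable. Both were lost without any 1 of the wild type arrays or RAG2-/- CD8α+ arrays (Col17a1 3.57 to 3.94, adjusted p 0.0962 to 0.272; Emilin2 -2.60 to -2.34, 0.164 to 0.282). Over all settings the adjusted p ran from 0.00712 to 0.272 for Col17a1 and from 0.0268 to 0.58 for Emilin2. Among the 9 genes themselves no such difference was called.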

How the results depend on the processing

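The genotype calls of Mmp12 in CD8α- cells and of Slpi and Col14a1 in both subsets kept their direction and call in all 18 settings. For Col14a1 this is no support, since it passed filters only through RAG2-/- arrays. With no filter its wild type readings were still near background. No interaction of Slpi, Timp2 or Col14a1 was called in any setting. With no filter, 83 pathway genes were called between genotypes in CD8α- cells and 76 in CD8α+ cells, where 4 of the 9 genes were then called, Mmp2 and Timp1 (both near background) being added. With a filter of 7, 12 pathway genes were called in CD8α- cells. Leaving out 1 array gave 11 to 18 pathway genes (11 without either wild type CD8α- array) and 3 to 5 of the 9 genes in CD8α- cells (5 without RAG2-/- CD8α- replicate 1, Timp2 and P3h2 being added). In CD8α+ cells it gave 5 to 15 pathway genes (5 without RAG2-/- CD8α+ replicate 1 or wild type replicate 2, 7 without wild type replicate 1). For the interaction it gave 0 to 3. The interaction count of pathway genes was 1 with quantile normalization, each probe set on its own, the trend fit or the replicate block, and 0 with no filter, a filter of 7 or without the 2 arrays with neutrophil transcripts. Over all genes, the block left 3 interaction calls of 21. Of the 9 genes it changed only the call of Timp2 (1.79 in CD8α- cells). Over all genes tested, no filter gave 10923 and 10678 genotype calls, each probe set on its own 5497 and 5221, and leaving out 1 wild type array as few as 1708 in CD8α- and 1677 in CD8α+ cells, against 3548 and 3230.

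Sign changes were found only where a change was near 0 or its error large. Mmp9 in CD8α- cells was -0.03 without the 2 arrays with neutrophil transcripts and from -0.03 to 1.14 without 1 array. Mmp12 in CD8α+ cells was -0.04 with each array centred, and had no value with readings below 5 set to 5. P3h2 in CD8α+ cells ran from -0.15 to 0.11 without 1 array. The interaction ran from -0.88 to 0.48 for Slpi and from -1.30 to 0.34 for Timp2 without 1 array, and was 0.95 for Timp2 without the 2 arrays with neutrophil transcripts. The cause was not tested. Leaving out those 2 arrays was added after the data were seen.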

Other observations

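Other marker lists, as the log2 of their summed level, also differed between groups. The monocyte list stood at 11.84 to 12.93 on wild type arrays, 15.10 to 15.32 in RAG2-/- CD8α- and 13.55 to 13.90 in RAG2-/- CD8α+ cells. The B and plasma cell list fell from 11.23 to 12.10 on wild type arrays to 7.96 to 8.65 on RAG2-/- arrays. NK cell markers stood at 7.48 to 7.84 in wild type and 9.23 to 11.65 in RAG2-/- cells. The marginal zone macrophage list was at 4.24 to 4.52 except in RAG2-/- CD8α- cells (7.27 to 7.43), where Cd209b was the only one of its markers to reach 5. The endothelial list was at 6.01 to 6.10 in wild type and 7.74 to 9.21 in RAG2-/- cells, where only Stab2 reached 5. T cell markers ran from 5.16 to 8.04 and plasmacytoid dendritic cell markers from 10.08 to 11.67. The CD8α- dendritic cell list stood at 13.53 to 14.74 in CD8α- and 9.95 to 10.21 in CD8α+ cells, and the list shared by both subsets at 16.76 to 17.64.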
